A study of Mus musculus with 37 samples.

Results

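The 10 transcripts described here encode glutathione S-transferases of brown adipose tissue (BAT): *Gsta3* and *Gsta4* of the alpha class, *Gstm1*, *Gstm2* and *Gstm5* of the mu class, *Gstp1* of the pi class, *Gstt1* and *Gstt3* of the theta class, *Gsto1* of the omega class and *Gstk1* of the kappa class. They were chosen by gene symbol, and all 10 were found among the 24657 symbols of the array table. Where a gene had more than 1 probe set, the one with the highest mean over the BXD strains stood for it. That applied to *Gstp1* alone, with 2 probe sets.

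Most glutathione S-transferases join the tripeptide glutathione to reactive molecules, among them foreign compounds and the aldehydes that form when membrane lipids are oxidised. The conjugates leave the cell through ABC transporters and are broken down outside it. Several of these genes are known targets of NRF2, which binds antioxidant response elements, and some of AHR, which binds xenobiotic response elements.

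BAT came from male mice of 35 BXD strains and of the 2 parents, C57BL/6J and DBA/2J, on a chow diet. The BXD strains are recombinant inbred lines derived from these parents, so each carries a fixed mosaic of both genomes. The animals were 29 weeks old, were fasted overnight and were perfused before the tissue was taken. RNA of about 5 mice per strain was pooled onto 1 Affymetrix MoGene 2.0 array, so no strain has a replicate, and the number of arrays limits the precision. All values are in rescaled units: the authors set every array to mean 8 with standard deviation 2, and neither the log base nor the summary method is given in the sources used here.

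The arrays carried the genes that define brown fat. *Ucp1*, the uncoupling protein of this tissue, lay between 14.82 and 15.69 rescaled units in the 34 BXD strains other than BXD70, and the mean of 8 brown fat genes had a median of 12.88 over all 35. The mean of 12 skeletal muscle genes ran from 9.89 in BXD65 through a median of 12.46 to 13.42 in BXD97. Liver transcripts stood out on 2 arrays. The mean of 10 liver genes was 11.72 in BXD70 and 10.23 in DBA/2J, against 7.59 in C57BL/6J and at most 8.39 in the other BXD strains. Each of the 10 liver genes was highest in BXD70 among the BXD strains, led by *Alb* at 14.96, and each was higher in DBA/2J than in any BXD strain other than BXD70. In those 34 strains, 7 of the 10 had a median below background. The main results that rest on BXD70 are given with and without it.

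Background was set by the 1128 probe sets of olfactory receptors, whose genes serve smell: the 95th percentile of their means was 7.94 rescaled units. By this limit 9 of the 10 glutathione S-transferases were above background, and *Gsta3* was not. *Gsta3*, an alpha-class enzyme best known from liver, had a mean of 7.59 ± 0.46 (SD, n = 35) and exceeded the limit in 2 strains. *Gstt3*, at 8.41 ± 0.18 (SD, n = 35), was above the 95th percentile but below the 99th, which was 8.82. The other 8 members were above both limits. Levels of different members come from different probes and were not set against each other.

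The range over strains, from the lowest to the highest of the 35, reached at least 1 unit in 3 of the 10 members: *Gsta3*, *Gsta4* and *Gstt1*. Of all 41155 probe sets 40.7% had such a range, and of the 19436 above background 35.2%. Of the 9 members above background, 2 had such a range, since *Gsta3* is below it. The median SD of the members was 0.18 units, beside 0.192 for all probe sets above background.

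*Gsta4*, the alpha-class enzyme that conjugates the lipid aldehyde hydroxynonenal, had a mean of 11.91 ± 0.38 (SD, n = 35). Its lowest value was 11.09 in BXD96, its median 11.99 and its highest 12.50, reached in both BXD81 and BXD45. Its range was 1.41 units, and 89.6% of the probe sets above background had a smaller SD. The strains formed a continuum, with no step between neighbouring values above 0.17 units. The parents were nearly level, at 11.94 in C57BL/6J and 12.06 in DBA/2J, while 16 strains lay above both parents and 16 below both. The range over the 35 strains was thus wider than the interval between the 2 parental arrays. That alone does not mark *Gsta4*: for probe sets above background the median range was 0.83 units and the median size of the parental difference 0.172.

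*Gstt1*, a theta-class enzyme that acts on small halogenated compounds, had a mean of 10.67 ± 0.30 (SD, n = 35). It ran from 9.94 in BXD43 through a median of 10.67 to 11.37 in BXD103, a range of 1.43 units. With the highest and the lowest strain left out the range was 1.05 units. The parents stood at 10.57 in C57BL/6J and 10.27 in DBA/2J, and 23 strains were above both.

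*Gsta3* had the lowest value of 7.13 in BXD65, a median of 7.52 and the highest value of 9.93 in BXD70. The next strain, BXD62, reached 8.06, so a step of 1.87 units set BXD70 apart from the other 34. The range of *Gsta3* was 2.79 units with BXD70 and 0.92 without it, and the SD went from 0.46 to 0.21. In BXD70 the liver genes were high as well, as given above, and their part in the *Gsta3* value was not tested. More cells of another type and more RNA per cell cannot be told apart in tissue pools. Without BXD70, then, 2 of the 10 members had a range of at least 1 unit.

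The other 7 members had ranges below 1 unit. *Gstm1*, *Gstm2* and *Gstm5*, the mu-class enzymes encoded in a cluster on chromosome 3, had means of 9.58 ± 0.18, 10.80 ± 0.22 and 10.49 ± 0.17 (SD, n = 35), with ranges of 0.80, 0.85 and 0.76 units. Of the probe sets above background, 60.6% had a smaller SD than *Gstm2*. *Gstp1*, the pi-class enzyme that also binds stress kinases, averaged 12.86 ± 0.17 (SD, n = 35), with a range of 0.71. Its second probe set had a mean of 11.25 ± 0.17 and followed the first over the strains (r = 0.631, permutation p = 5e-05, rho = 0.530, p = 0.00137, r = 0.596 without the 2 strains farthest from the median). The 2 probe sets of *Gstp1* therefore ranked the strains in a similar, not identical, way.

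*Gstt3*, the neighbour of *Gstt1* on chromosome 10, had the smallest range of the 10, 0.64 units, from 8.09 in BXD70 to 8.73 in BXD56. *Gsto1*, an omega-class enzyme that reduces dehydroascorbate and removes glutathione from protein thiols, had a mean of 11.45 ± 0.16 (SD, n = 35), with 11.05 in BXD69, a median of 11.46 and 11.76 in BXD90. *Gstk1*, the kappa-class enzyme of mitochondria and peroxisomes, ran from 12.59 in BXD62 to 13.28 in BXD92, with an SD of 0.15 (n = 35) and a range of 0.69. Of the probe sets above background, 25.8% had a smaller SD than *Gstk1*. Each array adds its own error to these ranges, which 1 array per strain cannot separate from strain differences.

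**Figure D1:**
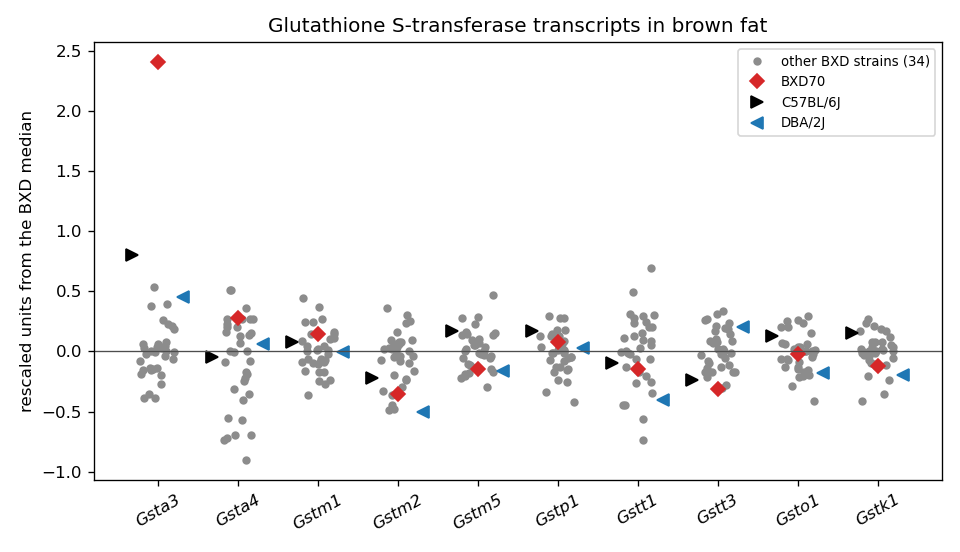
The vertical axis gives rescaled units from the median of the 35 BXD strains for each of the 10 members on the horizontal axis; grey points are 34 BXD strains, the red diamond is BXD70, and triangles are the parents. *Gsta3* shows BXD70 at 9.93 rescaled units, apart from the next strain at 8.06, while *Gsta4* and *Gstt1* spread over 1.41 and 1.43 units.

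The parental difference, DBA/2J minus C57BL/6J, reached 1 unit in 0 of the 10 members. There was 1 array per parent, so these differences have no replicate check and no test. Among all probe sets 2.44% differed by at least 1 unit, and among those above background 2.19%. *Gstt3* had the largest difference of the 10 in size, 0.44 units, at 8.16 in C57BL/6J and 8.61 in DBA/2J. It and *Gsta4* were the 2 members that were higher in DBA/2J.

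The other 8 members were higher in C57BL/6J, and this held under quantile normalization and after median centring of the arrays. These scalings use the same 2 arrays and are no replicate check. For *Gstm1* and *Gstp1* the difference was only -0.09 and -0.13 units. Both are smaller in size than 0.172, the median size for probe sets above background. Among probe sets above background 47.8% were higher in C57BL/6J, and their median difference was 0.013 units, beside -0.30 for the members. *Gstk1* was at 13.16 in C57BL/6J and 12.80 in DBA/2J, *Gsta3* at 8.32 and 7.98, *Gstm5* at 10.65 and 10.32, and *Gsto1* at 11.59 and 11.28. *Gsta3* was the lower of the 2 in the parent whose array carried the liver transcripts. For *Gstm2*, with 10.63 in C57BL/6J and 10.35 in DBA/2J, 26 of the 35 strains were above both parents and 0 below both. For *Gsta3* 33 strains were below both parents, but its signal exceeded the background limit in only 2 of the 35. Most strains fell between the parents for *Gstt3* (26), *Gstm5* (25), *Gstk1* (25) and *Gsto1* (23).

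Covariation among the members was looked at in all 45 pairs. In limma fits of every probe set on each member, with p adjusted over all other probe sets, 0 of the 45 pairs passed an adjusted p of 0.05 in both fits, and 0 in either fit. The lowest adjusted p of any pair was 0.163. At an unadjusted limma p under 0.05, 9 pairs passed in both fits. Of all other probe sets, between 4.51% (with *Gstt3*) and 17.3% (with *Gsto1*) had such a p, and 8.57% over the 10 members. In the permutations, 10 of the 45 pairs had a p of r under 0.05, all of them with a positive r, and 8 had a p of rho under 0.05. Over all 45 pairs the median r was 0.138 and 34 were above 0. With arrays centred on their median 36 were above 0, and without BXD70 32. The median r of single members with all other probe sets lay between -0.022 and 0.012.

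The largest pairwise r was that of *Gstm2* and *Gstt1* (r = 0.523, permutation p = 0.00115, rho = 0.471, p = 0.00493, adjusted p of 0.931 and 0.233), and it was 0.413 without the 2 strains farthest from the median of *Gstm2*. *Gstm2* came next with *Gstt3* (r = 0.499, permutation p = 0.00217, rho = 0.537, p = 0.00118, r = 0.434 without 2 strains, adjusted p of 0.935 and 0.994). It was followed by *Gstm2* with *Gstk1* (r = 0.475, permutation p = 0.0038, rho = 0.484, p = 0.00346, r = 0.531 without 2 strains, adjusted p of 0.935 and 0.708). These leading pairs join enzymes of different classes whose genes lie on different chromosomes. For genes that sit side by side the values were as follows. *Gstt1* and *Gstt3*, adjacent on chromosome 10, had r = 0.416 (permutation p = 0.0128, rho = 0.396, p = 0.0189, r = 0.294 without 2 strains, adjusted p of 0.473 and 0.994). *Gstm1* and *Gstm2*, adjacent on chromosome 3, had r = 0.262 (permutation p = 0.126, rho = 0.237, p = 0.168, r = 0.153 without 2 strains, adjusted p of 0.678 and 0.950). Genes of 1 class are alike in sequence, and whether their probes also bind each other's transcripts was not tested.

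**Figure D2:**
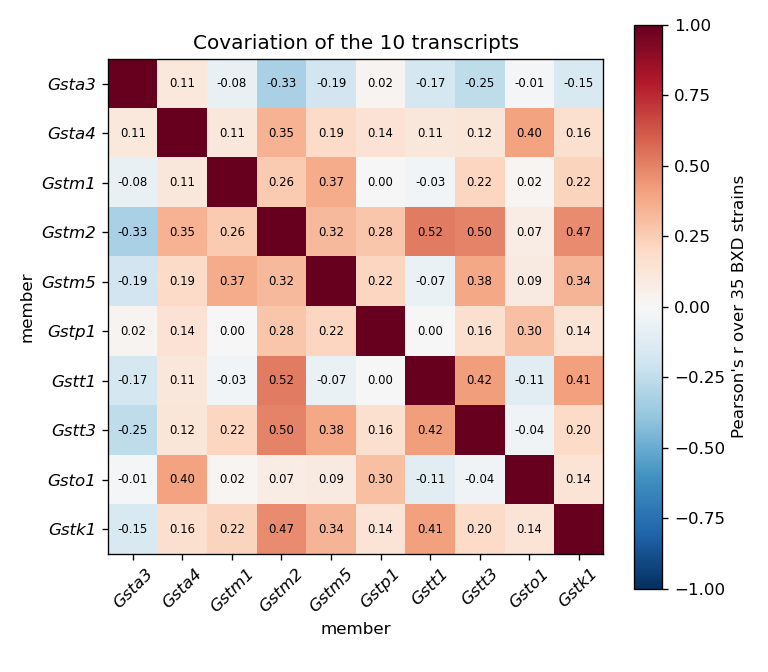
Both axes list the 10 members, and each cell gives Pearson's r of a pair over the 35 BXD strains, from blue below 0 to red above 0. The largest r, 0.523, is that of *Gstm2* and *Gstt1*, and the lowest, -0.325, that of *Gsta3* and *Gstm2*. Without BXD70, which the figure includes, the latter was -0.256, and the lowest was -0.432 for *Gsta3* and *Gstm1*, a pair at -0.076 with it.

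Beyond the family, transcripts that moved with a member over the strains were few for most members. Of 41154 other probe sets, limma called 4 with *Gsta4* (0.00972%), 3 with *Gstm1* (0.00729%), 2 with *Gstt1* (0.00486%) and 1 with *Gstm2* (0.00243%) at an adjusted p of 0.05. It called 0 (0%) with *Gstm5*, *Gstt3* and *Gstk1* and 0 of 41153 with *Gstp1*, while 4646, 1857, 2317 and 3362 probe sets had an unadjusted p under 0.05. The larger counts were 522 with *Gsto1* (1.27%) and 228 with *Gsta3* (0.554%).

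The 4 transcripts called with *Gsta4* came largely from its own chromosome. By the RefSeq annotation of GRCm38.p6, used here for gene order only, *Elovl5*, *Myo5a* and the noncoding *C920006O11Rik* share chromosome 9 with *Gsta4*, and *Mela* was not matched by symbol. Over all named probe sets matched to a chromosome, 5.27% lie on chromosome 9. *C920006O11Rik* is the gene directly beside *Gsta4*, *Elovl5* is 4 protein-coding genes away and *Myo5a* 25.

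*Elovl5*, which lengthens polyunsaturated fatty acids, rose with *Gsta4* (r = 0.711, permutation p = 1e-05, the smallest that 100000 permutations can give, rho = 0.712, p = 1e-05, adjusted p = 0.00903), and r was 0.647 without the 2 strains farthest from the median of *Gsta4*. It had a lowest value of 11.32, a median of 11.86 and a highest of 12.63, the last in BXD45, which also reached the top of *Gsta4*. As for *Gsta4* the parents were close, at 12.38 in C57BL/6J and 12.27 in DBA/2J, and 31 strains were below both. Both transcripts form a continuum over the strains.

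The other 3 transcripts are described by their widest step. *Mela*, a transcript of retroviral origin, had 14 strains between 7.04 and 8.36 and 21 between 12.62 and 15.41, with the parents on opposite sides at 7.82 in C57BL/6J and 12.73 in DBA/2J. *Myo5a*, a motor protein that carries organelles on actin, split into the same 14 strains, at 10.19 to 10.64, and 21 others at 10.84 to 11.42, with a step of 0.20 units between them, little wider than the widest in *Gsta4*. *C920006O11Rik* split into 22 strains at 7.88 to 8.88 and 13 at 9.31 to 10.46, and 12 of those 13 were among the 14 low in *Mela*. Its parents stood at 9.40 in C57BL/6J and 8.07 in DBA/2J, and those of *Myo5a* at 10.26 and 11.17. The 3 transcripts thus sorted nearly the same strains, and each had parents on either side of its step.

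Over all 35 strains the fit gave an adjusted p with *Gsta4* of 0.00118 for *Mela*, 0.0058 for *Myo5a* and 0.00426 for *C920006O11Rik*, which fell as *Gsta4* rose while the other two rose. Over these strains r with *Gsta4* was 0.758 for *Mela*, 0.722 for *Myo5a* and -0.728 for *C920006O11Rik* (permutation p = 1e-05, 1e-05 and 2e-05, rho = 0.686, 0.673 and -0.636), and 0.750, 0.715 and -0.724 without the 2 strains farthest from the median of *Gsta4*. Since the strains can be split at the widest step, r is also given within each group, where the narrower span can lower r. For *Mela*, r with *Gsta4* was -0.063 in the 14 strains (permutation p = 0.830, rho = -0.182, p = 0.530, r = 0.098 without 2 strains) and -0.110 in the 21 (permutation p = 0.630, rho = 0.246, p = 0.279, r = -0.188 without 2 strains). For *Myo5a* it was -0.404 in the 14 (permutation p = 0.151, rho = -0.332, p = 0.246, r = -0.066 without 2 strains) and 0.301 in the 21 (permutation p = 0.183, rho = 0.365, p = 0.103, r = 0.158 without 2 strains). For *C920006O11Rik* it was 0.022 in the 22 (permutation p = 0.923, rho = -0.013, p = 0.954, r = -0.136 without 2 strains) and -0.095 in the 13 (permutation p = 0.767, rho = -0.005, p = 0.993, r = 0.182 without 2 strains). None of these r had a permutation p under 0.05, but groups of 13 to 22 strains leave room for a relation within clusters, above all for *Myo5a*. *Gsta4* itself, whose parents were nearly level, had no step above 0.17 units.

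The count of 4 transcripts with *Gsta4* became 7 without BXD43, BXD45 or BXD87, and 9 without BXD61. With the first principal component added to the fit it was 2.

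**Figure D3:**
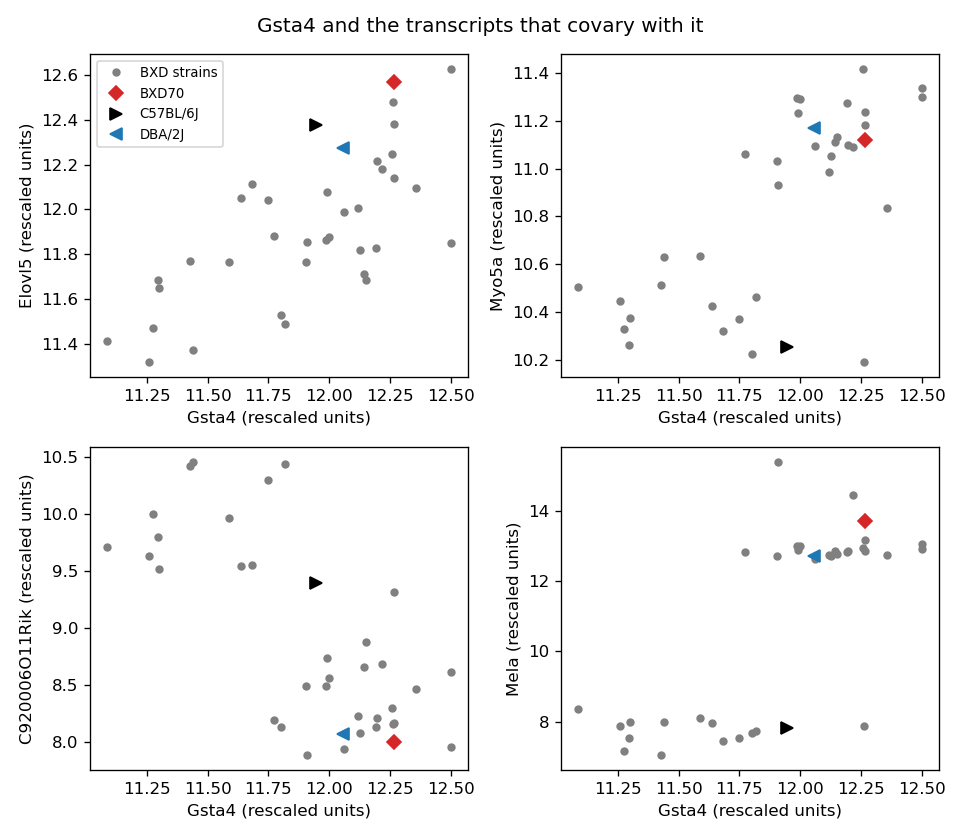
Each panel sets *Gsta4* on the horizontal axis against 1 of the 4 transcripts called with it on the vertical axis, both in rescaled units, for 35 BXD strains (grey points, BXD70 as a red diamond) and the parents (triangles). *Elovl5* rises with *Gsta4* as a continuum, while *C920006O11Rik* and *Mela* form clusters, of 14 and 21 strains for *Mela*, and *Myo5a* has a narrow step.

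Neighbours were also counted for every member, as the protein-coding genes up to the 20th on either side, so the noncoding *C920006O11Rik* is not among them. *Elovl5* was the 1 such neighbour called, among 40 tested around *Gsta4*. Around the other 9 members limma called 0 of 344 relations with a neighbour, with 27 at an unadjusted p under 0.05. The lowest adjusted p among them was 0.116, for *Pdcd4*, 15 protein-coding genes from *Gsto1*, and after median centring of the arrays this relation was called. The slope of *Elovl5* on *Gsta4*, in units per unit, was 0.61. It missed the threshold with the first principal component in the fit (slope 0.549, adjusted p = 0.209) and without the 2 strains farthest from the median of *Gsta4* (slope 0.576, adjusted p = 0.121). Without BXD61 there were 2 neighbours called, *Elovl5* and *Myo6*, both with *Gsta4*.

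The mu gene pair *Gstm1* and *Gstm2* and the theta gene *Gstt1* had from 1 to 3 called partners, on other chromosomes. *Gstm1* was called with *Mef2bnb*, whose protein helps to place lysosomes (r = 0.752, permutation p = 1e-05, rho = 0.690, p = 1e-05, r = 0.662 without 2 strains, adjusted p = 0.00989). It was called with *Dap*, a death-associated protein gene (r = 0.743, permutation p = 1e-05, rho = 0.743, p = 1e-05, r = 0.738 without 2 strains, adjusted p = 0.0216). In the other direction it was called with 1 of the 17 probe sets of *Hnrnpul2*, an RNA-binding protein (r = -0.741, permutation p = 1e-05, rho = -0.773, p = 1e-05, r = -0.728 without 2 strains, adjusted p = 0.0216). This negative call was lost with the mean of the probe sets of each gene and after median centring of the arrays, where 2 transcripts were called and both rose. The count for *Gstm1* depended on single strains and on scaling. It was 0 without BXD56, 1 without BXD45, BXD71, BXD79 or BXD103, 6 without BXD62, 10 without BXD95, 11 without BXD81, and 15 with quantile normalization.

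*Gstm2* was called with *Cdc42ep5*, an effector of a cytoskeletal GTPase (r = 0.742, permutation p = 1e-05, rho = 0.729, p = 2e-05, r = 0.769 without 2 strains, adjusted p = 0.0252). That call was lost, with a count of 0, without any 1 of BXD43, BXD49, BXD62, BXD64, BXD66, BXD68, BXD70 or BXD81. *Gstt1* was called with *Srd5a3*, an enzyme of dolichol synthesis (r = 0.741, permutation p = 1e-05, rho = 0.751, p = 1e-05, r = 0.697 without 2 strains, adjusted p = 0.0147). It was also called with *Crip2*, a LIM-domain protein (r = 0.713, permutation p = 1e-05, rho = 0.655, p = 4e-05, r = 0.647 without 2 strains, adjusted p = 0.0147). BXD103 was highest both in *Gstt1* and in *Crip2*, at 11.37 and 12.77. The count of 2 became 0 without BXD45 or BXD103, 6 without BXD49 and 13 without BXD43. It was also 0 without the 2 strains farthest from the median of *Gstt1*. With the first principal component in the fit it was 12, and without transcripts below background 15. Where the fit had called 0, some alternatives gave calls: for *Gstm5* 72 after median centring of the arrays, 67 without transcripts below background, 1 without BXD61, 2 without BXD103 and 4 without BXD95; for *Gstp1* 1 without BXD97; for *Gstt3* 1 without BXD43, BXD90, BXD97 or BXD99.

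*Gsto1* had the broadest covariation in the main fit, with 316 transcripts that rose and 206 that fell as it rose. Of the 466 matched to a chromosome, 16 lay on its own chromosome 19, which holds 3.38% of all named probe sets. Among the most alike above background were *Xrcc6bp1* (r = 0.72), *Lgals1*, the galectin-1 gene (r = -0.72), *Zfp263* (r = 0.71) and *Chchd7* (r = 0.71). For these 4, Spearman's rank correlation was 0.80, -0.77, 0.66 and 0.72, and r without the 2 strains farthest from the median of *Gsto1* was 0.68, -0.64, 0.70 and 0.64. Permutation p of r was 1e-05 for each, and the adjusted p was 0.00851, 0.0136, 0.0123 and 0.0107.

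The size of this set was not firm. It was 95 without BXD69, the strain lowest in *Gsto1*, 234 without BXD89, 271 without BXD61, 290 without BXD90, 296 without BXD66, 343 without BXD97, 793 without BXD95 and 866 without BXD49. Leaving out the 2 strains farthest from the median gave 21, and adding the first principal component to the fit gave 5. Quantile normalization gave 237, and centring arrays on their median gave 1850, of which 1510 rose and 340 fell.

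For *Gsta3*, 213 of the 228 transcripts rose with it. Among transcripts whose mean over all 35 strains, BXD70 included, was above background, the 5 most alike were *Apoa1* (r = 0.87), *Plg* (r = 0.85), *Elovl2* (r = 0.84), *Apoa2* (r = 0.82) and *Hpd* (r = 0.82). *Apoa1* and *Apoa2* encode apolipoproteins that liver cells secrete. Some transcripts below background were as much alike, such as *Abcc2* (r = 0.869). Without BXD70 these r were 0.19, -0.02, 0.21, -0.03 and 0.04, and rho over all 35 strains was 0.28, 0.06, 0.13, 0.01 and 0.03. The whole set rested on that strain. The count was 0 without BXD70, with 1725 probe sets at an unadjusted p under 0.05, and also 0 with ranks of *Gsta3* or with the liver list as a covariate.

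The likeness of the remaining members to transcripts above background is given as r over 35 strains. After its 4 called transcripts, *Gsta4* was most like *Aldh5a1* (0.68), and *Gstm1* was next most like *Pole3* (0.68) and *Timm13* (0.68). *Gstm2* was most like *Ptpn14* (0.65), *Acy3* (0.64), *Ppip5k2* (0.62) and *Cep78* (0.61), after *Cdc42ep5*. *Gstt1*, after *Srd5a3* and *Crip2*, was most like *Abi2* (0.67), *Rgnef* (0.67) and *Blcap* (0.66). None of these passed the adjusted threshold.

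*Gstk1*, like *Gstm2*, had *Cdc42ep5* as its closest partner (0.70), followed by *Rnaseh2b* (0.67), *Sesn3* (0.65), *Col27a1* (-0.62) and the mu-class gene *Gstm7* (0.61). *Gstm5* was most like *Canx*, the endoplasmic reticulum chaperone calnexin (-0.72), then *Gpd1l* (0.70), *Hnrnpu* (-0.69), *Lsm7* (0.68) and the fatty acid transporter gene *Cd36* (-0.68). *Gstp1* was most like the cochaperone gene *Cdc37* (0.63), then another probe set of *Canx* (-0.63), *Gm15772* (0.62), *Rab5b* (0.61) and *Ankrd17* (-0.61). *Gstt3* was most like *Gm19648* (0.71), *Selenbp1* (0.58), *C030046I01Rik* (0.58), *Tbc1d9* (-0.57) and *Tnfrsf18* (0.57). For these 4 members the main fit called 0 transcripts, so their partners are descriptions of rank only. *Cdc42ep5* was called with *Gstm2* but not with *Gstk1*.

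Genes that work around the transferases were taken from 7 lists: 21 other glutathione transferases and relatives, 18 genes of glutathione synthesis and breakdown, 16 of glutathione peroxidases and reduction, 25 of NRF2 and its targets, 9 of AHR and its targets, 7 of conjugate export and 12 of aldehyde clearance. Across the lists, 6 genes were called with a member, 4 with *Gsto1* and 2 with *Gsta3*, beside 1.27% and 0.554% of all probe sets. Synthesis and breakdown, peroxidases and reduction, and NRF2 and its targets had 0 genes called with any member by limma, while 29 of 180, 20 of 160 and 33 of 250 single relations had an unadjusted p under 0.05. Over all probe sets and the 10 members that share was 8.57%. The 0 held for none of the 3 lists after median centring of the arrays, where *Cth* was called with *Gsta3*, and *Glrx3* and *Osgin1* with *Gsto1*. Other alternatives gave calls in these lists as well, such as *Osgin1* with *Gsto1* without BXD70.

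With *Gsto1*, 2 of the 12 aldehyde clearance genes rose. *Aldh2*, the mitochondrial aldehyde dehydrogenase, had r = 0.639 (permutation p = 7e-05, rho = 0.605, p = 0.00021, r = 0.591 without 2 strains, adjusted p = 0.0242). *Aldh9a1*, which serves carnitine synthesis, had r = 0.572 (permutation p = 0.00034, rho = 0.587, p = 0.00029, r = 0.459 without 2 strains, adjusted p = 0.0313). The exporter gene *Abcc4* was 1 of 7 in its list to rise (r = 0.585, permutation p = 0.00015, rho = 0.487, p = 0.00342, r = 0.463 without 2 strains, adjusted p = 0.0282). *Clic1*, an ion channel protein with the fold of the omega transferases, was 1 of 21 in its list and fell as *Gsto1* rose (r = -0.614, permutation p = 7e-05, rho = -0.586, p = 0.00026, r = -0.528 without 2 strains, adjusted p = 0.0194). *Clic1* was highest, at 10.01, in BXD69, where *Gsto1* was lowest, and its parents were 8.73 in C57BL/6J and 9.83 in DBA/2J. None of these 4 calls held without BXD69, without the 2 farthest strains or with the first principal component in the fit, while the slopes kept their sign. In that order, the slope of *Aldh2* went from 0.53 to 0.535, 0.553 and 0.504. That of *Aldh9a1* went from 1.23 to 1.15, 1.06 and 0.997, that of *Clic1* from -1.24 to -1.09, -1.15 and -1.10, and that of *Abcc4* from 0.989 to 0.981, 0.808 and 0.529. The slope of *Abcc4* with the component thus shrank the most. BXD69 was not the only single strain to end a call. *Aldh9a1* also lost its call without BXD43, BXD61, BXD89, BXD90 or BXD97, and *Abcc4* without BXD62 or BXD90. *Aldh2* also lost it without BXD89, and *Clic1* without no other single strain. Quantile normalization lowered the 6 list genes to 4, with an adjusted p of 0.0784 for *Abcc4* and 0.0567 for *Aldh9a1*. With the muscle covariate these were 0.0751 and 0.0504, and with both parents included *Aldh9a1* was at 0.0559. The median r of *Gsto1* was 0.143 with the aldehyde list, 0.156 with the peroxidase list, -0.080 with conjugate export and -0.164 with the AHR list, beside -0.016 over all probe sets. With the aldehyde list it was larger for *Gsta4*, at 0.200, and *Gstm2*, at 0.182.

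With *Gsta3*, *Abcc2*, which exports glutathione conjugates into bile, and *Cyp1a2*, a cytochrome of liver, were called (adjusted p = 2.27e-08 and 3.26e-05). Both were highest in BXD70, at 9.54 and 9.14, with the next strain at 8.26 and 8.01. *Abcc2* had r = 0.869 over all 35 strains (permutation p = 0.00118, rho = 0.318, p = 0.0645) and 0.302 without BXD70. *Cyp1a2* had r = 0.759 (permutation p = 0.00842, rho = 0.132, p = 0.444) and 0.095 without it, so both relations rested on BXD70. The total of 6 list genes became 3 without BXD69, namely *Abcc2*, *Abcc3* and *Cyp1a2*, all with *Gsta3*.

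Of the 21 other transferases and relatives in the family list, 16 were above background. A range of at least 1 unit was seen in 9, all of them among the 16 above background. Of all probe sets 40.7% had such a range, and of those above background 35.2%. A parental difference of at least 1 unit was seen in 2, *Gstt2* and *Clic1*, beside 2.44% of all probe sets. *Gstt2*, another theta-class gene, was at 8.82 in C57BL/6J and 10.37 in DBA/2J, with the strains from 9.31 through a median of 10.10 to 11.20. All 35 strains were above the C57BL/6J array, and 14 were above both parents. *Gstm7* was at 9.38 in C57BL/6J and 8.67 in DBA/2J, and 30 of 35 strains fell between them.

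Marker lists of 8 tissues or cell types were set against the members, and 2 members were called. The share of 41155 probe sets called with each list was 0.629% for liver, 1.89% for skeletal muscle, 1.67% for brown fat, 1.3% for white fat, 3.51% for macrophages, 2.69% for endothelium, 0.656% for lymphocytes and 0.00972% for blood. *Gsta3* was called with the liver list (r = 0.829, permutation p = 0.0155, rho = 0.067, p = 0.701, adjusted p = 7.48e-08), and all 10 liver genes were called with it. Without BXD70 r was -0.032 (adjusted p = 0.989), and without the 2 strains farthest from the median of *Gsta3* it was -0.015. Among the other 34 strains *Gsta3* was above background in 1, and 7 of the 10 liver genes had a median below it, so whether they covary there cannot be told from these values.

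*Gsto1* was called with the white fat list and ran against it (r = -0.567, permutation p = 0.0003, rho = -0.594, p = 0.00021, r = -0.503 without 2 strains, adjusted p = 0.0464). The mean of the 6 white fat genes went from 8.67 in BXD43 through a median of 9.19 to 9.79 in BXD61. The call stood near the threshold: the adjusted p was 0.0494 without BXD70, 0.0741 under quantile normalization, 0.076 after median centring of the arrays and 0.0794 with both parents included. Of the 6 genes, 5 had a negative r with *Gsto1*, 1 was called and 2 were below background.

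The 1 called was *Lep*, the leptin gene (r = -0.615, permutation p = 8e-05, rho = -0.587, p = 0.00035, r = -0.518 without 2 strains, adjusted p = 0.0153), with strains from 9.08 through 11.20 to 13.38. *Retn*, another product of white fat cells, had r = 0.34 with *Gsto1* and an adjusted p of 0.254. The white fat genes therefore did not move as 1 block with *Gsto1*. All 12 muscle genes had a negative r with *Gsto1*, and 0 were called in the limma fit, with 4 at an unadjusted p under 0.05. Of all probe sets, 47.4% had a positive r with *Gsto1* and 17.3% such a p. In the fit without transcripts below background, 4778 of 19435 had such a p. The mean of the muscle list had r = -0.325 with *Gsto1*, while the macrophage list (r = -0.448, adjusted p = 0.133) and the lymphocyte list (r = -0.419, adjusted p = 0.234) ran further against it without being called.

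**Figure D4:**
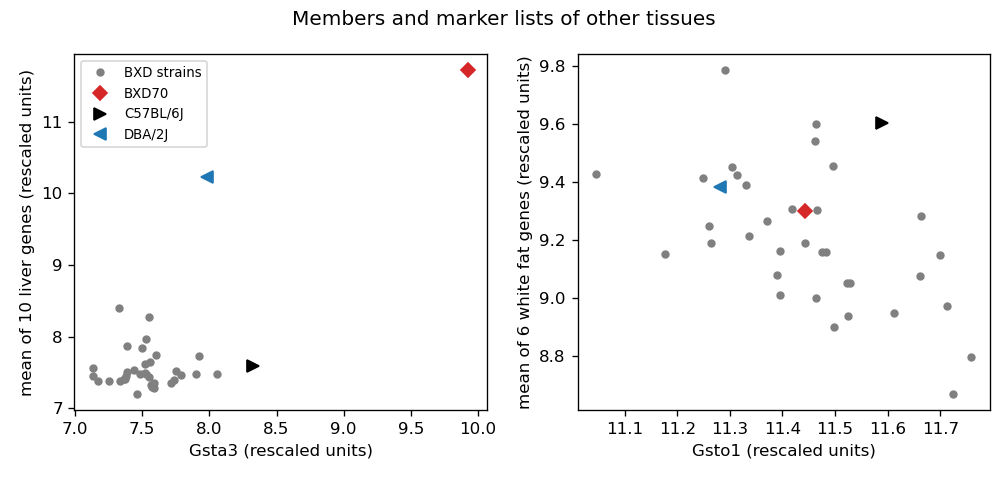
The left panel sets *Gsta3* against the mean of 10 liver genes and the right panel *Gsto1* against the mean of 6 white fat genes, all in rescaled units, for 35 BXD strains (grey points, BXD70 as a red diamond) and the parents (triangles). BXD70 stands alone on the left, at 9.93 and 11.72, while the points on the right slope downward with r = -0.567.

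Promoter sequences from RefSeq (GRCm38.p6), the 250 bases before the gene start, were matched by symbol for 9 of the 10 members; *Gsta4* had no entry. The antioxidant response element core was searched as TGACNNNGC and the xenobiotic response element core as GCGTG, on both strands. The first was found in 10.2% of 32851 promoters of this length and in those of 2 members, *Gsta3* and *Gstm5*. The second was found in 28.2% of promoters and in those of 3 members, *Gstm1*, *Gstm5* and *Gstp1*. The promoters of *Gsta3* and *Gstm5* are printed since they hold the NRF2-type core, which starts 121 bases before the start of *Gsta3* and 42 before that of *Gstm5*; capitals mark it. In *Gstm5* 1 of the 2 GCGTG matches overlaps it. They lie on the plus strand at chr1:21240335-21240584 and chr3:107895604-107895853.
Gsta3: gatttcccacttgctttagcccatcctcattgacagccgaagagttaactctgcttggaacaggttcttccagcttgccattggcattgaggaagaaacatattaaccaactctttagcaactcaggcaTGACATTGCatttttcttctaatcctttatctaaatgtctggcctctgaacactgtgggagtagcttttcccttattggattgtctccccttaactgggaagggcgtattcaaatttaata
Gstm5: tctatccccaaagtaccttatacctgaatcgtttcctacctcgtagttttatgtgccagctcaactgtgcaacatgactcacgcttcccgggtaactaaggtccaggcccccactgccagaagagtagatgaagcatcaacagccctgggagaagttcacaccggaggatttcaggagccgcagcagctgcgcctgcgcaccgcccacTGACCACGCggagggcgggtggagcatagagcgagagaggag

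With the NRF2 list, limma called 0 of 25 genes for either member, and 5 for *Gsta3* and 1 for *Gstm5* had an unadjusted p under 0.05, beside 6.47% and 11.3% of all probe sets. The median r with its 25 genes was 0.100 for *Gsta3* and 0.021 for *Gstm5*, beside -0.022 and -0.015 over all probe sets. Without BXD70 *Gsta3* had 2 genes at an unadjusted p under 0.05 and a median r of 0.073. The largest median over all strains was 0.199 for *Gstm1*, with 20 of 25 genes above 0 and 7 at an unadjusted p under 0.05 (8.94% of all probe sets), and *Gstm1* has no match to TGACNNNGC in this window. The lowest was -0.192 for *Gstt1*, with 9 of 25 above 0 and 7 at an unadjusted p under 0.05 (7.47% of all probe sets). The match says only that these letters are present, and binding was not measured.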

How the data were processed

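BAT arrays of 35 BXD strains and both parents were analysed, with columns matched to strains by name. The deposited table holds 41345 probe sets for 37 arrays, and its values are scores, since the authors rescaled every array to mean 8 with standard deviation 2. Affymetrix Expression Console is named in the submitters' processing notes; the summary method, log base and build are not given in the sources used here. Removing 190 controls left 41155 probe sets, of which 28392 had a gene symbol. Of the 24657 symbols, 21233 were current in RefSeq.

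Every probe set was fitted on each member, and on the mean of each marker list, with limma 3.58.1 (R 4.3.3; lmFit, eBayes, Benjamini-Hochberg adjustment over all other probe sets, threshold 0.05), after the step was tested on simulated data. Permutation tests were two-sided with 100000 permutations. The rest used pandas 2.3.3, scipy 1.17.1 and numpy 2.4.6 under Python 3.11.15, with figures from matplotlib 3.10.9.

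The members and lists were chosen with earlier results of these data known. Named are all members, list genes and neighbours called with a member, and for each member the 5 transcripts above background with the largest absolute r, of which 1 is not reported here. Other called transcripts (all among these 5), *Lep*, *Retn*, *Ucp1*, *Alb*, *Myo6*, *Pdcd4*, *Abcc3*, *Cth*, *Glrx3*, *Osgin1*, *Gstt2* and *Gstm7* were named after their values were seen. Of the lists, 21 of 22 other transferases, 9 of 11 AHR genes and 4 of 6 blood genes were found, and the rest in full. Alternatives were other scalings, probe set means, parents included, covariates, ranks, strains left out, a filter on dim transcripts and other thresholds.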

Additional observations from a re-analysis of the deposited data

How the results depend on the processing

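Under every alternative run, 8 or 9 members were above background (8 with the 99th percentile; 9 without BXD70, an alternative chosen after the data were seen), 2 or 3 had a range of at least 1 unit, 0 had a parental difference of 1 unit or of 0.5, and 0 of the 45 pairs passed. The 6 pathway genes became 13 after median centring of the arrays, 0 without the 2 strains farthest from the median of the member and 2 at an adjusted p of 0.01, and ran from 3 to 9 with each strain left out in turn. The 1 neighbour became 2 after median centring of the arrays, 0 with the first principal component as a covariate and 0 without the 2 farthest strains, and was 1 or 2 with each strain left out. The 2 members that covary with a marker list became 1 with quantile normalization, with centring on the median, without BXD70, with both parents included and at an adjusted p of 0.01. A stricter threshold can only keep or lower a count. For the other changes, those with strains left out included, the cause was not tested.

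Single relations of a list gene or neighbour with a member kept direction and call in 281 recomputations and lost the call, with the direction kept, in 39. Parental differences of single members moved by less than 1 SD in all 30, and ranges in 65, with 5 moved further. Counts of transcripts per member stayed within 1.5 times in 386 and moved beyond it in 74. The main fit called 228 transcripts with *Gsta3*, 4 with *Gsta4*, 3 with *Gstm1*, 1 with *Gstm2*, 2 with *Gstt1*, 522 with *Gsto1* and 0 with the other 4 members. Without transcripts below background the counts were 37 for *Gsta3*, 21 for *Gstm1*, 67 for *Gstm5*, 15 for *Gstt1*, 1 for *Gstt3* and 1307 for *Gsto1*. At an adjusted p of 0.01 they were 5 for *Gsto1*, 1 for *Gstm1* and 0 for *Gstm2* and *Gstt1*. Without the 2 farthest strains they were 0 for *Gsta3*, *Gstm1* and *Gstt1* and 21 for *Gsto1*. The first principal component in the fit gave 2 for *Gsta4*, 0 for *Gstm2*, 9 for *Gstm5*, 12 for *Gstt1* and 5 for *Gsto1*. Muscle genes as a covariate gave 7 for *Gstm5* and 0 for *Gstm2*. The liver covariate, ranks, and leaving out BXD70 each gave 0 for *Gstm2* and *Gsta3*. After median centring of the arrays *Gstm5* had 72, *Gstk1* 3, *Gstt3* 1 and *Gsto1* 1850. Under quantile normalization *Gstm1* had 15, *Gstm2* 0, *Gstt3* 1 and *Gsto1* 237. With 1 array per strain, array error is part of every range, its effect on r was not tested, and *Gsta3* is limited by its signal, which is below background in most strains.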
